A study of Mus musculus with 2 samples.

Results

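The genes described here encode the protein factors that start and extend protein synthesis on cytosolic ribosomes. They were taken as the protein-coding genes in both gene tables whose GENCODE symbol begins with Eif (initiation factor) or Eef (elongation factor) followed by a digit, with no use of measured values. The rule found 67 genes of the 43346 mouse genes in the tables, 55 of them Eif and the others Eef. RNA came from whole hearts of B6NCrl mice at postnatal day 0 (0 days), and 13 pg of it, selected to be longer than 200 nt and called 1 cell-equivalent, went into each of the 2 libraries. Replicate 1 is the heart of pup 1 and replicate 2 the heart of pup 3, and the labels list sex as not collected. Both libraries form 1 group, so no treatment, control or test between groups exists. A difference between them joins 2 hearts, 2 RNA aliquots and 2 amplifications, which cannot be told apart. Xist and Y-linked genes, given below, were read in opposite libraries, so a difference in sex is joined in as well. RNA of all heart cells was pooled, so fewer cells of a type and less RNA per cell cannot be told apart either.

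Initiation begins when eIF2, carrying the initiator tRNA, joins the small ribosomal subunit together with eIF1, eIF1A, eIF3 and eIF5. The eIF4 factors bind the mRNA cap and unwind the leader, and eIF5B brings in the large subunit. During elongation eEF1A delivers aminoacyl-tRNAs, the eEF1B complex recharges eEF1A with GTP, and eEF2 moves the ribosome along the mRNA. In rodent heart, skeletal muscle and neurons, the isoform encoded by Eef1a2 is known to take the place of that encoded by Eef1a1 after birth.

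Expected counts (estimated reads) totalled 40648700 and 33173400 in the libraries, spike-ins included, and 39671900 and 32751900 on mouse genes. Where a gene had 0 counts, counting error alone leaves room for 3, which over the mouse totals is 0.0756 CPM (counts per 1000000) in replicate 1 and 0.0916 CPM in replicate 2. The 4 heart muscle markers, Actc1, Tnnt2, Myh6 and Nppa, summed to 31572 TPM in replicate 1 and 41374 TPM in replicate 2. TPM here means transcripts per 1000000 over mouse genes, a level corrected for transcript length. Of 5 skeletal muscle markers, Mylpf alone was read, at 22.1 TPM in replicate 1, with the whole list at 0 in replicate 2. The 5 neuronal markers summed to 1.89 and 1.01 TPM, and the 3 liver and 3 lung markers had 0 counts.

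Most factor genes were read. In both libraries, 56 of 67 reached 1 TPM, against 28.4% of all protein-coding genes. A further 8 passed in 1 library, and 3 had 0 counts in both: Eif2ak3, which encodes the endoplasmic reticulum stress kinase PERK, Eif4e1b, an oocyte form of the cap-binding protein, and the methyltransferase gene Eef1akmt3. Summed over the members, TPM came to 1.30% of the total in replicate 1 and to 0.881% in replicate 2 (1.09 ± 0.295%, SD, n = 2). Elongation factors of the eEF1 class made up the largest share, 0.594% and 0.281%, followed by the combined eIF1, eIF5 and eIF6 genes with 0.246% and 0.215%. The eIF4 class had 0.162% and 0.172%, the eIF3 class 0.161% and 0.141%, the eEF2 class 0.0819% and 0.0303%, and the eIF2 class 0.0533% and 0.0408%. The eEF2 and eEF1 classes were 2.70 and 2.11 times higher in replicate 1 when summed, whereas the other classes lay between 0.944 and 1.31 times. Eef1a1 and Eef2 made up most of those 2 sums, and of the 8 eEF1 genes averaging at least 5 TPM, 4 were lower and 4 higher in replicate 2.

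**Figure D1:**
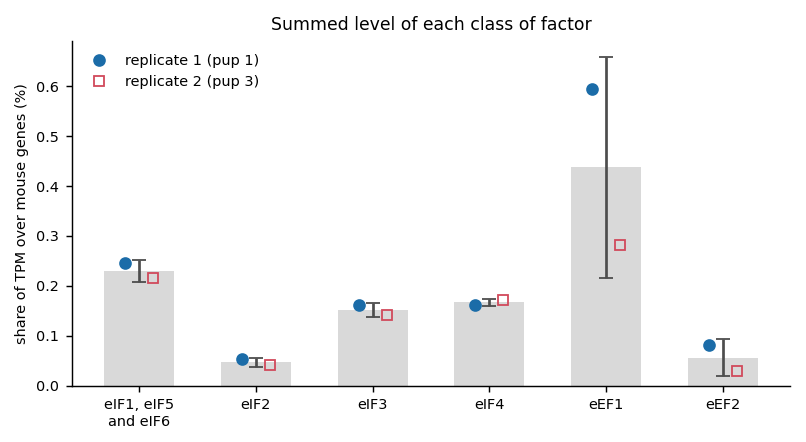
Summed TPM of each class of factor gene as a percent of TPM over all mouse genes. Bars show the mean of the 2 libraries, error bars the SD (n = 2), circles replicate 1 and squares replicate 2. The eEF1 class stands at 0.594% and 0.281% and the eEF2 class at 0.0819% and 0.0303%, while the libraries lie close together for eIF4 at 0.162% and 0.172%.

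Elongation factor 1A was the most abundant factor. Eef1a1, on chromosome 9 (78478449 to 78489151, minus strand, mm10), stood at 4797 TPM in replicate 1 and at 1990 TPM in replicate 2, a mean of 3394 ± 1985 TPM (SD, n = 2). Replicate 1 was thus 2.41-fold higher, a log2 ratio of replicate 2 over replicate 1 of −1.27 on the log2(TPM + 1) scale, which understates differences of weakly read genes. Expected counts were 227414 and 74757, and their posterior SDs, which measure how uncertain the assignment of reads was, came to 17.1 and 10.5. The 9 pseudogene copies of Eef1a1 found by alignment held 33.8 and 8.61 TPM, which is 0.699% and 0.431% of gene and copies together.

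Eef1a2, the adult muscle and neuronal isoform, was read far less, at 1.20 TPM (77 counts) in replicate 1 and 15.1 TPM (821 counts) in replicate 2. The isoforms therefore differed in opposite directions between the libraries, with Eef1a1 lower and Eef1a2 higher in replicate 2. Within each library Eef1a1 exceeded Eef1a2 by 11.09 and 6.95 on the log2 scale (9.02 ± 2.93, n = 2). In raw TPM this is 4004-fold in replicate 1 and 132-fold in replicate 2. Skeletal muscle markers at 1 TPM or more numbered 1 of 5 in replicate 1 and 0 of 5 in replicate 2, and neuronal markers 1 of 5 and 0 of 5, with 19 counts on Tubb3 and 28 on Stmn2 in replicate 2. Their part in the level of Eef1a2 was not tested.

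The nucleotide exchange complex eEF1B had 3 measured subunits, all well read. Eef1d, which encodes the delta subunit, had 503 and 347 TPM, and Eef1b2, the beta subunit, 435 and 215 TPM. Eef1g, the gamma subunit, ran the other way at 155 and 199 TPM. The gamma and delta subunits were within 2-fold between the libraries, and Eef1b2 lay just outside at 2.02-fold. In CPM, which is not divided by length, the log2 ratio of Eef1b2 was −0.71 and so within 2-fold. Eef1e1, a scaffold protein of the multi-tRNA synthetase complex, had 22.0 and 28.5 TPM.

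The translocase gene Eef2, on chromosome 10 (81176631 to 81182498, plus strand), stood at 756 TPM in replicate 1 and at 265 TPM in replicate 2 (510 ± 348 TPM), a log2 ratio of −1.51. Its single kinase, encoded by Eef2k, which phosphorylates eEF2 and slows elongation, had 39.9 TPM from 4498 counts in replicate 1 and 0.0307 TPM from 6 counts in replicate 2. The kinase gene thus had the most extreme log2 ratio of the members averaging at least 5 TPM, at −5.31. Its estimated effective length was 3492 nt in replicate 1 and 6250 nt in replicate 2, so the tables assigned its reads to different transcript models. Eef2kmt, a lysine methyltransferase of eEF2, had 23.2 and 38.8 TPM. Among methyltransferases of eEF1A, Eef1akmt2 had 22.3 and 2.96 TPM, and Eef1akmt1 had 1 count in replicate 1 and 341 counts (16.9 TPM) in replicate 2. Its share of reads was 413-fold higher in replicate 2, with an exact 95% counting interval of 73.6 to 16362.

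**Figure D2:**
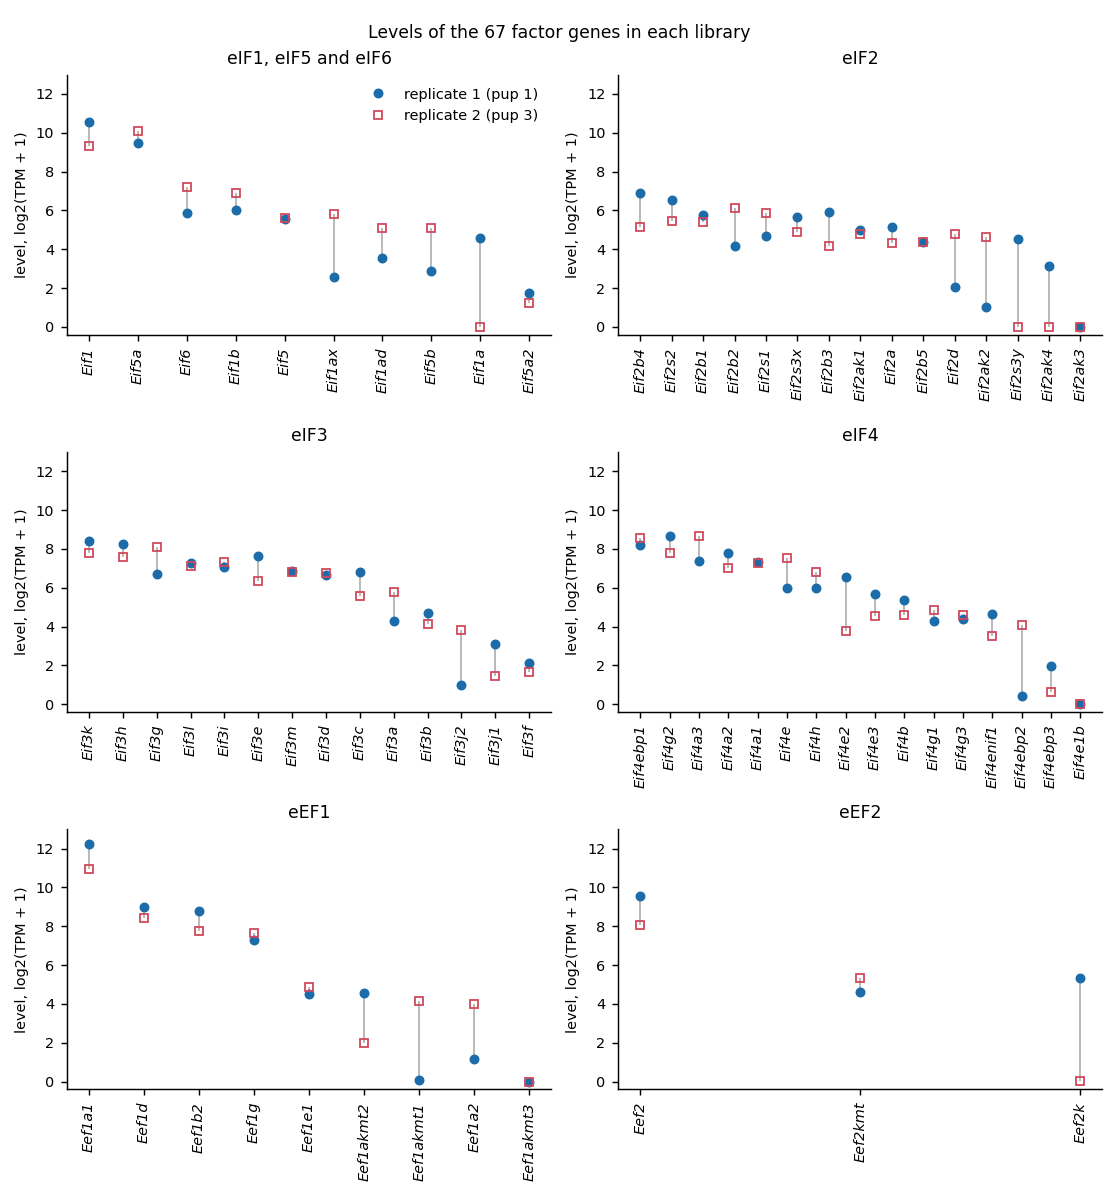
Level of each of the 67 factor genes as log2(TPM + 1) in replicate 1 (circles) and replicate 2 (squares), in 6 panels by class and ordered by mean within a class. Vertical lines join the libraries. Eef1a1 stands highest (4797 and 1990 TPM), and long lines mark genes read in 1 library almost alone, such as Eef2k and Eif1a.

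The start-codon factors were led by Eif1, whose product holds the ribosome open while it scans. Eif1 stood at 1524 TPM in replicate 1 and at 627 TPM in replicate 2 (1076 ± 634 TPM, log2 ratio −1.28). Its relative Eif1b had 64.0 and 118 TPM, so Eif1 exceeded Eif1b by 4.55 and 2.40 within the libraries (3.48 ± 1.52). For eIF1A, the other scanning factor, a different gene was higher in each library. Eif1a had 1856 counts (22.7 TPM) in replicate 1 and 0 in replicate 2, while Eif1ax on chromosome X had 4.83 and 56.1 TPM. Against a floor of 3 counts in the empty library, the share of reads on Eif1a was at least 511-fold higher in replicate 1. Eif1ad, an eIF1A-domain protein gene, had 10.8 and 33.2 TPM.

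Eif5a, whose hypusine-bearing product helps ribosomes through difficult peptide bonds, was the third most abundant member by mean, at 720 and 1090 TPM (905 ± 262 TPM). Its paralogue Eif5a2 was barely read, at 2.29 and 1.32 TPM, and the pair differed by 8.33 ± 0.78 on the log2 scale. Eif5, which activates GTP hydrolysis by eIF2, had 46.9 and 47.0 TPM, the closest match of the members that were read. These levels came from unequal counts of 5859 and 3099 and from unequal effective lengths of 3867 and 2407 nt, and in CPM the log2 ratio was −0.64. Eif5b, the subunit-joining GTPase, had 6.36 and 33.5 TPM, and Eif6, which keeps the large subunit from joining early, had 57.5 and 145 TPM. Of the 9 genes of the eIF1, eIF5 and eIF6 class averaging at least 5 TPM, 2 were lower in replicate 2, against 49.8% of all genes with such a mean, and the median log2 ratio was 0.87.

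The 3 subunits of eIF2 are encoded by 4 genes. The alpha subunit Eif2s1, the target of the stress kinases, stood at 24.5 TPM in replicate 1 and at 58.3 TPM in replicate 2. The beta subunit Eif2s2 had 91.3 and 42.9 TPM. The alpha subunit was therefore lowest in replicate 1 among the alpha, beta and X-linked gamma genes, and highest in replicate 2. The gamma subunit is encoded by an X-linked and a Y-linked gene. Eif2s3x had 49.96 and 28.5 TPM, whereas Eif2s3y, on chromosome Y (1010543 to 1028847, plus strand), had 22.4 TPM from 1249 counts in replicate 1 and 0 counts in replicate 2, at least 344-fold lower by reads. Beside it, the Y-linked Ddx3y had 3824 counts in replicate 1 and 0 in replicate 2, and the X-inactivation RNA Xist had 2 counts in replicate 1 and 6789 in replicate 2. Both genes were chosen after their values were seen. A pseudogene copy of Eif2s3x held 18.1 and 5.85 TPM, which is 26.6% and 17.0% of gene and copy together, so the level of this gene is less certain than those of its partners.

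The exchange factor eIF2B, which recycles eIF2, has 5 subunits, and all were read in both libraries. Eif2b1 (52.9 and 41.9 TPM) and the catalytic subunit Eif2b5 (20.01 and 19.6 TPM) were within 2-fold. Eif2b3 had 60.3 and 17.2 TPM and Eif2b4 118 and 34.0 TPM, both over 2-fold lower in replicate 2. Eif2b2 had 17.2 and 69.7 TPM, the opposite direction. In CPM, Eif2b5 was 2-fold apart as well, at −1.04, with effective lengths of 2811 and 1331 nt.

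Of the 4 kinases of eIF2 alpha, Eif2ak1, the haem-regulated kinase known from red cell precursors, was read most evenly at 31.0 and 26.7 TPM. The 5 red cell markers summed to 5657 and 5564 TPM. Their part in the level of Eif2ak1 was not tested. Eif2ak2, the double-stranded RNA kinase PKR, had 1.02 and 23.7 TPM. Eif2ak4, the amino acid sensor GCN2, had 1251 counts (7.87 TPM) in replicate 1 and 1 count in replicate 2. Eif2a and Eif2d, which encode factors that can deliver initiator tRNA without eIF2, had 34.1 and 19.3 TPM and 3.13 and 26.2 TPM.

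The scaffold complex eIF3, which binds the small subunit, has 14 genes here. All but Eif3j2 reached 1 TPM in both libraries, and 7 of the 12 averaging at least 5 TPM were within 2-fold. The other 5 were over 2-fold apart, against 54.6% of all genes with such a mean. Of these, Eif3e and Eif3g average 100 to 300 TPM, where that share was 24.3%. In the same range Eif3k, Eif3h, Eif3l, Eif3i, Eif3m and Eif3d were within 2-fold. Eif3c and Eif3a average 20 to 100 TPM, where the share was 46.5%, and Eif3j2 5 to 20 TPM, where it was 72.3%. By mean, Eif3k (336 and 222 TPM) and Eif3h (304 and 191 TPM) were the most abundant, although Eif3g stood above both in replicate 2. Eif3l (155 and 138 TPM), Eif3i (133 and 160 TPM), Eif3m (114 and 110 TPM) and Eif3d (99.2 and 107 TPM) differed least. Subunits of the one complex did not share a direction, with 7 of the 12 lower in replicate 2, against 49.8% of all genes with such a mean. Eif3e (199 and 80.0 TPM) and Eif3c (110 and 46.7 TPM) were over 2-fold lower in replicate 2. Eif3g (103 and 270 TPM) and the scaffold subunit Eif3a (18.3 and 54.4 TPM) were over 2-fold higher. The core subunit Eif3b had 25.2 and 16.5 TPM.

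Levels within eIF3 spanned a wide range although the subunits assemble together. By mean the lowest was Eif3f, at 3.43 and 2.15 TPM. The loosely bound j subunit is encoded by near-identical genes, Eif3j1 (7.49 and 1.72 TPM) and Eif3j2 (0.990 and 13.3 TPM). These are uncertain, since reads can be split between them, and the posterior SD was 28.5% of the count for Eif3j2 in replicate 1.

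The eIF4 class holds cap-binding proteins, helicases, scaffolds and repressors. Among the RNA helicases, Eif4a1 stood at 162 TPM in replicate 1 and at 155 TPM in replicate 2, and Eif4a2 222 and 127 TPM. Eif4a3, a helicase of the exon junction complex, had 164 and 412 TPM. The order of the helicase genes thus differed between the libraries, and neither Eif4a1 over Eif4a2 (−0.08 ± 0.53) nor Eif4a1 over Eif4a3 (−0.71 ± 0.98) stood beyond its spread. The helicase partners were Eif4h at 61.9 and 112 TPM and Eif4b at 40.4 and 23.1 TPM.

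The cap-binding protein gene Eif4e had 61.3 and 183 TPM, and its relatives ran the other way. Eif4e2, which encodes a cap-binding repressor, had 93.1 and 12.9 TPM, and Eif4e3 had 49.7 and 22.0 TPM. In TPM, Eif4e2 was therefore above Eif4e in replicate 1 and below it in replicate 2. In CPM, Eif4e was above Eif4e2 in both libraries, by 0.30 and 3.55 on the log2 scale. The length estimates of Eif4e2 were 1488 and 3295 nt, and in CPM its log2 ratio between the libraries was −1.64 instead of −2.76.

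Of the scaffold genes, Eif4g2, whose product serves cap-independent initiation, was the most abundant at 411 and 221 TPM. It exceeded Eif4g1, the main cap-dependent scaffold (18.8 and 28.1 TPM), by 3.66 ± 1.03 on the log2 scale. Eif4g3, a further scaffold, had 19.8 and 23.4 TPM, level with Eif4g1 within the spread (0.09 ± 0.23). In CPM, Eif4g1 over Eif4g3 was −0.47 in replicate 1 and 0.64 in replicate 2. Among the repressors that sequester eIF4E, Eif4ebp1 dominated, with 291 and 373 TPM. Eif4ebp2 had 15 counts (0.354 TPM) in replicate 1 and 733 counts (15.9 TPM) in replicate 2, and Eif4ebp3 2.98 and 0.562 TPM. Eif4ebp1 exceeded Eif4ebp2 by 6.11 ± 2.32. Eif4enif1, the eIF4E transporter, had 24.2 and 10.4 TPM, with effective lengths of 2924 and 823 nt and a log2 ratio of −1.14, which was −2.84 in CPM.

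Within each library, 19 pairs of related members were set against each other, and 6 kept 1 sign with a mean log2 ratio beyond 2 SD. These were Eef1a1 over Eef1a2, Eif5a over Eif5a2, Eif4ebp1 over Eif4ebp2, Eef2 over Eef2k, Eif4g2 over Eif4g1 and Eif1 over Eif1b. Eef2 over Eef2k did not pass in CPM or with a pseudocount of 0.1. Of the 13 others, 8 had opposite signs in the libraries, among them Eif1a over Eif1ax (2.02 and −5.84) and Eif3j1 over Eif3j2 (2.09 and −2.39). In CPM, Eif4e over Eif4e2 left that set, while Eif4a1 over Eif4a3 and Eif4b over Eif4h entered it. The rule is a description, since SDs over 2 libraries are rough.

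**Figure D3:**
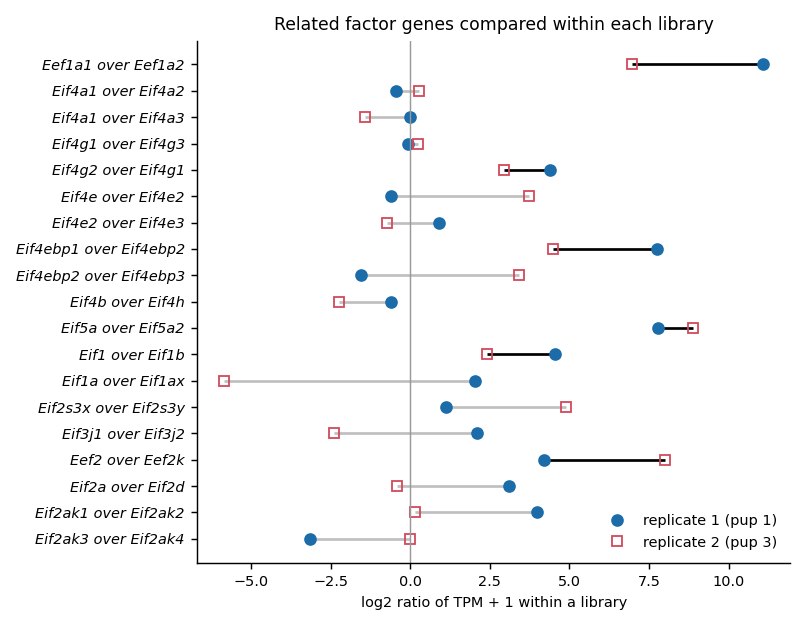
Log2 ratio of TPM + 1 between related factor genes within replicate 1 (circles) and replicate 2 (squares) for 19 pairs. Black lines mark the 6 pairs with 1 sign and a mean beyond 2 SD, and grey lines the 13 others. Eef1a1 over Eef1a2 lies farthest right, at 11.09 and 6.95, and 8 pairs cross 0.

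Across the 59 members averaging at least 5 TPM, 32 differed by over 2-fold between replicates. Among all 8266 genes with that mean, 54.6% were. The members split evenly, 16 higher and 16 lower in replicate 2, against 27.7% and 26.9% of all genes. Their median log2 ratio was −0.05, beside 0.01 for all genes. The share of members over 2-fold apart was thus near that of all genes when level was not matched. Within ranges of level, given below, it was above that of all genes in every range except 20 to 100 TPM. A member whose mean reached 5 TPM through 1 library alone had to differ, and 8 of the 67 lay under that mean. Few members were missing altogether, in a comparison that was not matched for level. Of 51 members at 10 TPM or more in replicate 1, Eif1a and the Y-linked Eif2s3y had under 3 counts in replicate 2, against 13.3% of all such genes. Eef2k, with 6 counts in replicate 2, lay just above that limit. For Eif2s3y, a missed RNA and a difference in sex cannot be told apart by this count. Of 55 at that level in replicate 2, Eef1akmt1 had under 3 counts in replicate 1, against 13.5%.

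By level, the most abundant members were over 2-fold apart more often than all genes. Of the 8 members at 300 TPM or more, 4 were over 2-fold apart, namely Eef1a1, Eef2, Eif1 and Eef1b2, against 12.8% of the 462 genes at that level. All 4 were lower in replicate 2, as were 6 of the 8, against 50.9% of all genes there. This was not particular to the factors. Of 82 cytosolic ribosomal protein genes, not split by level (median 471 TPM), 28 were over 2-fold lower and 72 lower by any amount. Between 100 and 300 TPM, 7 of 14 were lower in replicate 2, against 48.7% of all genes there, and 5 of 14 were over 2-fold apart, against 24.3%: Eif3e, lower in replicate 2, and Eif3g, Eif4a3, Eif4e and Eif6, higher. Between 20 and 100 TPM, 11 of 24 were over 2-fold apart against 46.5%, with 12 lower in replicate 2 against 50.6%. Between 5 and 20 TPM, 12 of 13 were over 2-fold apart against 72.3%, with 6 lower against 49.3%. No test was made of these shares. Eef1b2 was the member nearest the limit and was within it in CPM, with a log2 ratio of −0.71.

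**Figure D4:**
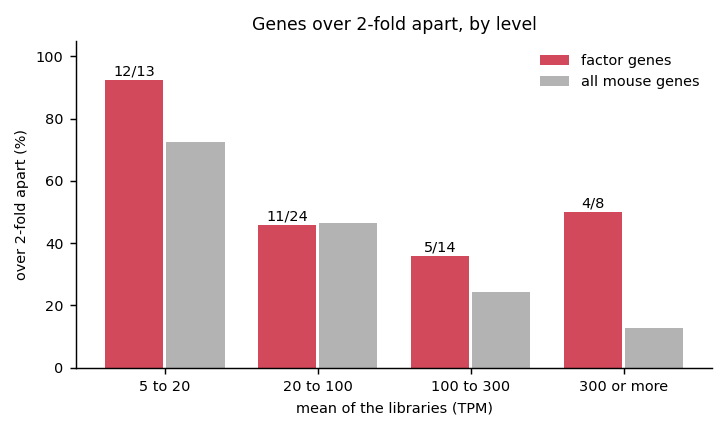
Share of genes over 2-fold apart between the libraries, in 4 ranges of mean TPM, for factor genes (red, with counts above the bars) and for all mouse genes (grey). The share of all genes falls from 72.3% to 12.8% with level, while 4 of the 8 factor genes at 300 TPM or more were over 2-fold apart.

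The class medians of the log2 ratio were −1.51 for eEF2 (3 members), −0.33 for eIF2 (13), −0.11 for eIF3 (12), −0.09 for eEF1 (8) and 0.08 for eIF4 (14). The sign for eIF4 turned in CPM (−0.24), with DESeq2 size factors (−0.02) and with no filter on the mean (−0.03), so no direction is given for that class. DESeq2 and TMM factors moved the median of all genes to −0.10 and −0.06. Eif1a, Eif2s3y and Eef1akmt1, with under 3 counts in 1 library, had the most extreme ratios of their classes. Placing them at their bounds could therefore not move a class median, and it is no check of the medians.

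**Figure D5:**
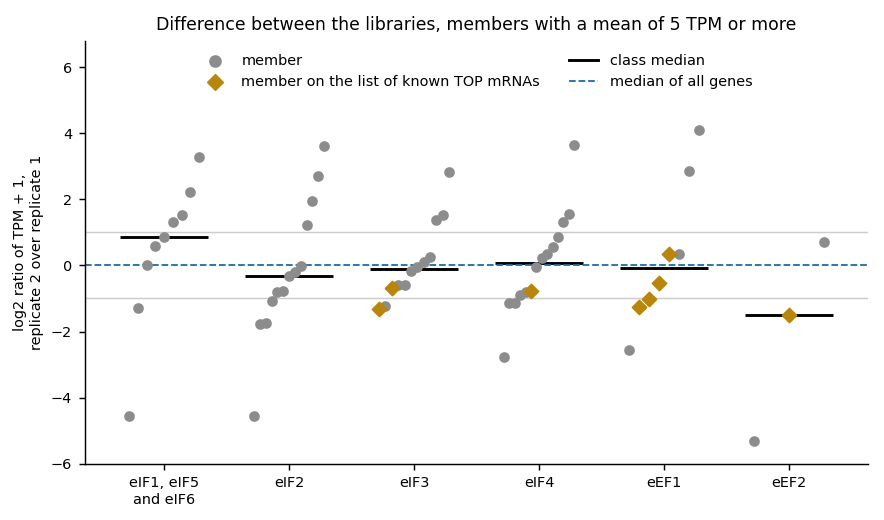
Log2 ratio of TPM + 1, replicate 2 over replicate 1, for the 59 members averaging at least 5 TPM, by class, with the class median as a black line. Diamonds mark members on the list of known TOP mRNAs, the dashed line the median of all genes (0.01), and grey lines 2-fold. Of the 8 diamonds, 7 lie below 0.

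Several factor genes are known to make TOP mRNAs, which begin with a cytosine and an unbroken run of pyrimidines, as the mRNAs of ribosomal proteins do, and whose translation responds to mTOR. A list of 9 such members was used: Eef1a1, Eef1b2, Eef1d, Eef1g, Eef2, Eif3e, Eif3f, Eif3h and Eif4b. Start-site sequences are shown for the 5 of them with an entry in the RefSeq promoter table (GRCm38.p6), so that the annotated starts can be set beside the list. Each runs from 5 bases before to 25 bases after the annotated start, with the longest run of pyrimidines in capitals.
Eef1a1, chr9:78481700-78481729, minus strand: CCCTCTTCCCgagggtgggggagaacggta
Eef2, chr10:81176626-81176655, plus strand: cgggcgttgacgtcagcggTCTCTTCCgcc
Eif3f, chr7:108934410-108934439, plus strand: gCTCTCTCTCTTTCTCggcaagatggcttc
Eif4b, chr15:102073768-102073797, plus strand: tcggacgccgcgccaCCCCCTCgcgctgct
Eef1b2, chr1:63176826-63176855, plus strand: gTTCCgccggaagtagccgaggccttgcgt

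The marked run spans the annotated start in Eef1a1 and Eif3f, where it opens at positions −5 and −4 relative to the start. In Eef1a1 that is the first base of the window, so the run may begin further upstream. The base at its annotated start is a T, not a cytosine. The marked run opens downstream in Eef2, at position 15, and in Eif4b, at position 11. The annotated starts of Eef1a1, Eef2 and Eif4b thus do not show the feature as defined. A run of 7 or more pyrimidines, searched on the sense strand of this window of 30 bases, was present in 4 of the 5, Eef1b2 being without one at its annotated start. Counted by gene, with any of its promoters, it was found in 15 of the 51 members with an entry, in 30 of 64 ribosomal protein genes and in 18.7% of all 27025 genes. Counted by promoter, it was found in 16 of 66 of the members and in 16.3% of all 32851. Eef1a2 also holds such a run, of 10 bases, but it opens downstream of the annotated start, at position 16.

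Of the 8 listed members averaging at least 5 TPM, 7 were lower in replicate 2, with a median log2 ratio of −0.89. Eef1g alone was higher, at 0.36. Eif3e (−1.31), Eif4b (−0.78), Eif3h (−0.67) and Eef1d (−0.54) joined Eef1a1, Eef2 and Eef1b2. The ninth, Eif3f, was under 5 TPM with a ratio of −0.49. Among the other 51 members, 24 were lower, with a median of 0.11, and among all genes 49.8% were lower. That comparison was not matched for level, since the median level was 248 TPM for listed members and 33.4 TPM for the others. The list was also chosen with earlier results of these data known. The cytosolic ribosomal protein genes were lower in 72 of 82, with a median of −0.78, and summed to 5.37% and 3.11% of TPM. For the listed members the count stayed at 7 of 8 with TMM and DESeq2 factors, in CPM, in posterior mean TPM and with a pseudocount of 0.1, and the median was −0.73 or below in each. Counted by a run anywhere in the window, 9 of the 13 members with one were lower in replicate 2 (median −0.60). Of the 33 without one, 15 were lower (median 0.11). The 9 include the listed Eef1a1, Eef2 and Eif4b, so this count is not separate from the list. It also takes in runs that open downstream of the annotated start, as in Eef2 and Eif4b. Over all genes with an entry, 50.6% with a run and 49.2% without one were lower.

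Other genes of translation were set beside the factors. Their counts stand against the 27.7% of all genes averaging at least 5 TPM that were over 2-fold higher in replicate 2 and the 26.9% that were over 2-fold lower. Of 8 termination and recycling genes, all with such a mean, 3 were over 2-fold higher and 2 over 2-fold lower. Hbs1l, a ribosome rescue GTPase gene, had 83.3 and 14.6 TPM, and Denr, which helps recycle the small subunit, 40.1 and 47.0 TPM. The release factor genes Gspt1 and Gspt2, which encode forms of eRF3, were read in opposite libraries. Gspt1 had 218 counts (10.7 TPM) in replicate 1 and 0 in replicate 2, and Gspt2 1 count and 678 counts (13.5 TPM). Among the 8 of 9 poly(A)-binding and cap partners with such a mean, 1 was over 2-fold higher and 3 over 2-fold lower. Paip2, a repressor of poly(A)-binding protein, had 137 and 215 TPM, Pabpc1, the main poly(A)-binding protein, 74.9 and 41.6 TPM, and Paip1, its coactivator, 26.5 and 0.532 TPM.

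Mitochondrial translation factors were close in the libraries where abundant. Tufm, the mitochondrial counterpart of eEF1A, had 230 and 261 TPM, and Gfm1, the counterpart of eEF2, 90.6 and 84.8 TPM. Both were within 2-fold. Mtif3, a mitochondrial initiation factor, had 42.4 and 0.0511 TPM, and of 7 such genes averaging at least 5 TPM, 2 were over 2-fold lower in replicate 2, against 26.9% of all genes, and 0 over 2-fold higher, against 27.7%.

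Of 9 genes of the stress arm downstream of eIF2 alpha, 4 reached 1 TPM in both libraries. Atf4, whose translation is favoured when eIF2 alpha is phosphorylated, had 66.4 and 78.4 TPM, and Ppp1r15a, which encodes a phosphatase subunit that reverses it, 21.3 and 32.0 TPM. Ddit3, the stress transcription factor CHOP, had 0 counts in replicate 1 and 279 counts (12.9 TPM) in replicate 2. Trib3, Chac1 and Sesn2 had 0 counts in both. A list of genes around mTOR and eIF4E mixed mTOR components with inhibitors, targets and the eIF4E kinase genes Mknk1 and Mknk2. Of its 11 genes averaging at least 5 TPM, 1 was over 2-fold higher in replicate 2, against 27.7% of all genes. In the other direction, 6 were over 2-fold lower, against 26.9%, namely Akt1s1, Mlst8, Tsc1, Mknk1, Mknk2 and Rps6. Given that mixture, the counts give no direction for the mTOR pathway. Rps6, 1 of those 6 and also among the ribosomal protein genes, had 609 and 246 TPM, and Rheb, the small GTPase that activates mTOR, 137 and 140 TPM. Tsc1, which restrains Rheb, had 3139 counts (36.5 TPM) in replicate 1 and 0 in replicate 2.

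Transcript models were compared for the 27 members averaging at least 20 TPM with at least 2 listed transcripts. The same transcript led in both libraries for 20 of them, against 72.2% of all such genes. In 7 it held 90% or more of the gene in both, as for Eif4a1-213 (97.3% and 99.7% of Eif4a1) and Eif3i-201 (99.7% and 99.4% of Eif3i). Eef1a1-201 held 81.8% and 74.4% of Eef1a1. The 7 with different leading transcripts were Eef2kmt, Eif1ax, Eif2b4, Eif4a2, Eif4e2, Eif4g3 and Eif5. By share of counts in place of TPM, Eef2kmt and Eif1ax had the same leader in both libraries, and Eef1b2 and Eif4g1 did not. By TPM, Eif4g1 was led in both libraries by Eif4g1-222 of 2200 nt (28.4% and 42.4%), annotated as a target of nonsense-mediated mRNA decay. In replicate 2, Eif4a2 was led by a transcript of that type and Eif4g3 by one annotated as a processed transcript, not as protein-coding. For Eif4e2, the short Eif4e2-204 of 1119 nt held 74.0% in replicate 1 and 0% in replicate 2, where Eif4e2-202 of 3394 nt held 100%. For Eif5, the long Eif5-202 held 100% in replicate 1 and 29.4% in replicate 2, and Eif5-201 the remaining 70.6%. For Eif1ax, the short intron-retaining Eif1ax-202 of 416 nt led in replicate 2 with 66.9% by TPM, though not by counts. Such differences alter the length by which counts are divided, and for these genes TPM and CPM ratios can differ.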

How the data were processed

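RNA-seq was done on 2 libraries of 1 group, which the labels call biological replicates from separate pups with 1 donor identifier. The authors deposited gene and transcript tables holding expected counts with their posterior means and SDs, TPM, and the percent of a gene held by each transcript, per the file headers. Deposited notes name mm10 and GENCODE M4. Aligner and quantifier: not given in the sources used here. Only the 43346 mouse genes were kept, without spike-ins and rows named by a number alone, and their TPM was scaled to 1000000. GENCODE M21, built on that assembly, gave symbols for 42462 genes.

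Levels are mean ± SD over libraries, ratios use log2(TPM + 1) with a mean of 5 TPM or more, and no test was possible in 1 group. Reads carry no molecular identifiers, so intervals and floors cover counting error only, and strand was not stated. Pseudogene copies were found with blastn 2.17.0 (90% identity over 50% of their length). Alternatives used a pseudocount of 0.1, CPM, posterior mean TPM, other filters, and edgeR 4.0.16 or DESeq2 1.42.0 factors on expected counts rounded to whole numbers. Over 11245 genes the counts of the libraries had a chi-square of 824 per gene, so they are not 1 library deposited again. The ratio was tested on simulated counts that held counting error alone and the same length for a gene in both libraries. That test does not cover the wider spread or the unequal lengths of the real libraries. Calculations used Python 3.11.15, pandas 2.3.3 and R 4.3.3.

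Genes with values in full were the members of the pairs, the most abundant members of each class, members over 2-fold apart with a mean of 20 TPM or more, members missing from 1 library, and 2 or 3 genes of each pathway list. Others named were chosen after their values were seen. Members and lists were chosen with earlier results of these data known.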

Additional observations from a re-analysis of the deposited data

How the results depend on the processing

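No paired analysis was possible because the 2 libraries form 1 group. Leaving out a replicate gave 59 to 61 members read in place of 56, and shares of TPM from 0.881 to 1.30% for all members, 0.215 to 0.246% for eIF1, eIF5 and eIF6, 0.0408 to 0.0533% for eIF2, 0.141 to 0.161% for eIF3, 0.162 to 0.172% for eIF4, 0.281 to 0.594% for eEF1 and 0.0303 to 0.0819% for eEF2. For each pair it leaves the ratio of the other library, and 8 of the 19 pairs then differ in sign between the libraries. It leaves no ratio between libraries, so those ratios and the match of leading transcripts were not repeated that way. In expected counts, which favour long genes, shares were 0.0868% for eIF2, 0.176% for eIF3, 0.279% for eIF4 and 0.135% for eEF2.

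The median log2 ratio of all members was −0.13 in CPM, −0.13 with TMM factors, −0.16 with DESeq2 factors and −0.11 at a mean of 20 TPM or more, a filter that left fewer genes, with 20 over 2-fold apart and 9 of them higher in replicate 2. The eIF2 median was −0.76 in CPM and −0.79 at that filter. The eIF3 median was −0.22 with DESeq2 factors and −0.33 with no filter. The eIF4 median was −0.24 in CPM, 0.013 with TMM factors, −0.020 with DESeq2 factors and −0.031 with no filter. The eEF1 median was −0.16 with TMM factors, −0.20 with DESeq2 factors, 0.00 with no filter and −0.54 at a mean of 20 TPM or more. The cause of these shifts was not tested where no construction is named. Of the 32 members over 2-fold apart, 31 stayed beyond 2-fold under all 5 changes of unit, pseudocount or scaling, with 0 changes of direction, and Eef1b2 did not in CPM. The pairs passing numbered 5 or 6. Leading transcripts matched for 20 members by TPM share and for 20 by counts, of which 18 were shared. Each heart gave 1 aliquot of 13 pg, so no value separates the spread between hearts from that between aliquots.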
